A study of Mus musculus with 10 samples.

Results

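The genes described here are the ATP-binding cassette (ABC) transporters of families A to G and the organic anion carriers of the Slco family in mouse liver. They were chosen by a rule on gene names, with earlier results of these data known. The rule took every protein-coding gene of the deposited table whose symbol is Abca to Abcg with a number, or Slco with a number. Abcb11, the bile salt export pump, was left out. The rule found 63 of 54532 genes, of which 49 are ABC genes and 14 are Slco genes. The livers came from 10 mice that had been fed HFD (high-fat diet) for 7 weeks, starting at 6 weeks of age, and tissue was collected after a fast of 5 h. By the labels 5 mice were ASK1f/f and 5 were ASK1+hep. Both genotypes are on a C57BL/6J background and derive from mice with a ROSA26-based construct that holds murine ASK1 cDNA behind a lox-stop-lox cassette. ASK1f/f mice are the control littermates, and in ASK1+hep mice the stop cassette is removed by Cre driven by the albumin promoter, which is active in hepatocytes. No group with Cre and without the construct is among the samples, so effects of Cre and of ASK1 cannot be told apart. ASK1, encoded by Map3k5, is a kinase upstream of the stress kinases JNK and p38. The study used the livers to look for genes that differ between the genotypes, and the question asked here is whether transporter transcripts do.

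ABC transporters are membrane pumps that use ATP to move lipids, sterols, bile pigments, conjugated drugs, metals or peptides out of the cytosol, and they are named by family. In the hepatocyte, pumps of the canalicular membrane face the bile, pumps of the basolateral membrane face the blood, and others sit in peroxisomes, mitochondria or lysosomes. Slco genes encode organic anion transporting polypeptides, which take up bile acids, bilirubin, hormone conjugates and many drugs from the blood without using ATP. Members of families E and F have the ATP-binding part without membrane helices and act on ribosomes.

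Libraries held 13367742 to 16163378 reads on genes, 14411830 to 16056102 in ASK1f/f and 13367742 to 16163378 in ASK1+hep (n = 5 each). Expression was deposited as FPKM, that is, reads per gene scaled by gene length and by a size for each library. This size was not the total of reads on genes but 0.890 (ASK1+hep replicate 3) to 1.06 (ASK1f/f replicate 1) times that total. Map3k5 was at 6.74, 6.88, 5.77, 4.71 and 19.8 FPKM in ASK1f/f livers 1 to 5 and at 16.4, 11.1, 7.68, 12.4 and 15.2 FPKM in ASK1+hep livers 1 to 5. The highest value of the 10 was that of the library labelled ASK1f/f replicate 5, which goes against the label. The library labelled ASK1+hep replicate 3 also stood apart, with 10.9% of its reads on mitochondrially encoded genes against 4.19% to 6.74% in the others, and with a sample quality weight of 0.254 where the others had 0.509 to 2.32. For some counts and differences, values without these libraries are given as well. Cells of the liver are pooled in each value, so fewer cells of a type and less RNA per cell cannot be told apart.

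Of the 63 transporters, 44 passed the filter on low values (a minimum of 10 reads, after scaling to the median depth, in 5 or more livers, with a total of 15 reads or more), 38 of them ABC and 6 of them Slco genes. A further 10 had reads but did not pass, and Abca14, with 1 to 20 reads per liver, was the highest of these. The remaining 9 had 0 reads in every liver, which at these depths allows up to 3 reads per library. They were Abca12, Abca15, Abca16, Abcb5, Slco1a5, Slco1a6, Slco6c1, Slco6d1 and Abcc8, the regulatory subunit of the pancreatic potassium channel. A few hepatocyte genes held most of the signal. Slco1b2, the main liver carrier for bilirubin and many drugs, had a mean of 188 ± 55.1 FPKM (SD, n = 10 livers), and Slco1a1, an uptake carrier of male mouse liver, 88.4 ± 19.5 FPKM (SD, n = 10 livers). These genes together made up 34.7% of the summed mean FPKM of the set, and with Abcd3, Abcc2 and Abcc3 the share was 56.1%. Abcd3, a peroxisomal pump, was at 80.4 ± 9.76 FPKM (SD, n = 10 livers), within the spread of Slco1a1. Further down, Abcc2, Abcc3 and Abcc6 had means of 52.2, 38.3 and 37.7 FPKM, followed by Abcg5, Abcb4 and Abcg8 at 34.2, 33.0 and 29.8 FPKM. In the range of 38.3 to 29.8 FPKM each gene lay within the SD of its neighbours. In all, 23 transporters had a mean of at least 5 FPKM, 10 were between 1 and 5, and 11 of the 44 were below 1. The plot of FPKM by liver shows the 23 transporters described by name.

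**Figure D1:**
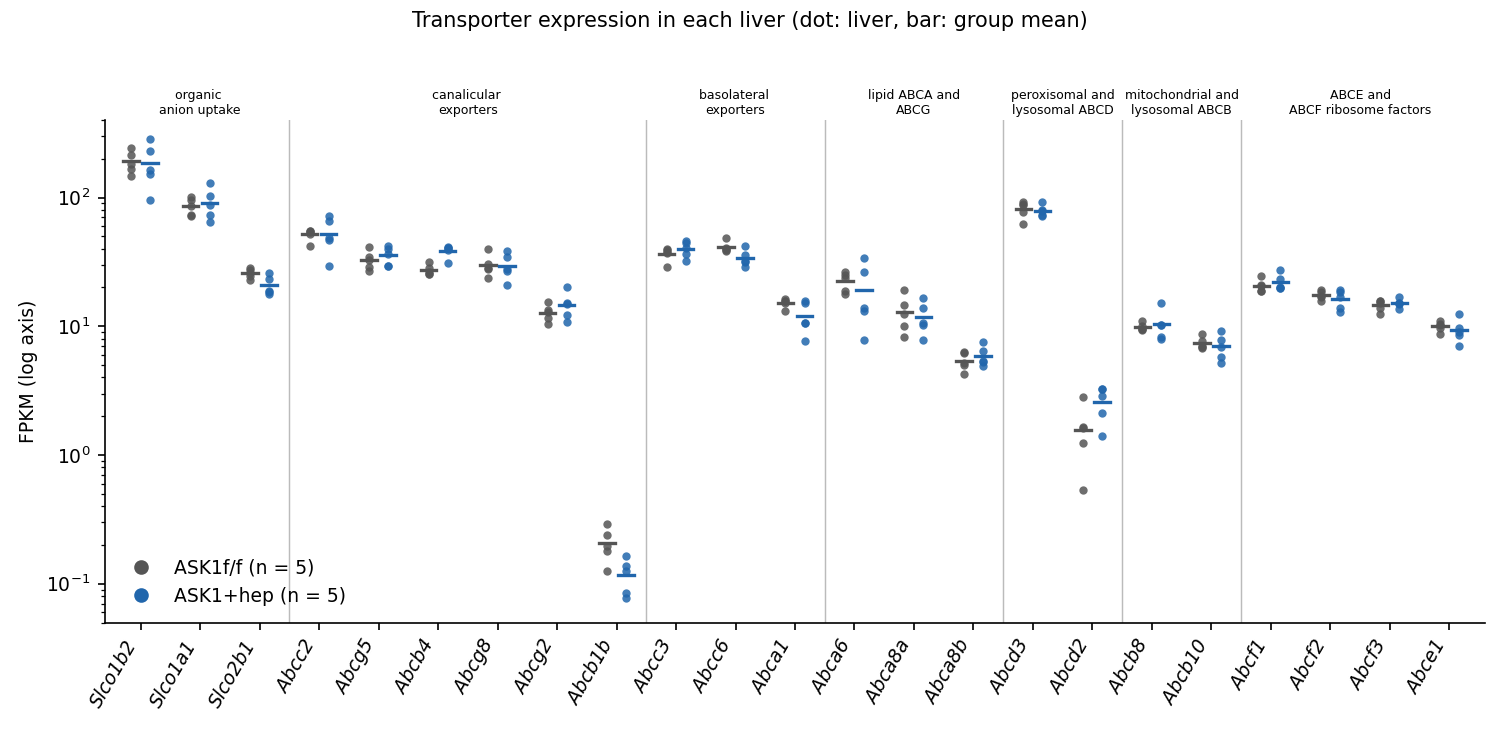
FPKM on a log axis of the 23 named transporters in each of the 10 livers, grouped by role, with grey dots for ASK1f/f (n = 5), blue dots for ASK1+hep (n = 5) and a bar at each group mean. Slco1b2 lies highest, with 95.4 to 284 FPKM, and Abcb1b lowest, with 0.0774 to 0.293 FPKM, and in none of the 23 genes are the genotypes fully separated.

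The comparison of genotypes used limma on log2(FPKM + 1), a scale that understates the difference of genes with low FPKM, and p-values were adjusted over all 13306 genes that passed the filter. Differences are given as ASK1+hep minus ASK1f/f. Of the 44 transporters 0 had an adjusted p at or below 0.05, as for all genes (0%), and limma-voom on the recovered reads also called 0. The lowest adjusted p of a transporter was 0.712, for Abcb4. At an unadjusted p below 0.05 limma gave 5 of 44, or 11.4%, beside a background of 5.77% of all genes, and limma-voom gave 6. Among these 5, ASK1+hep livers had the higher mean for 2 (Abcb4 and Abcd2; background 3.05%) and the lower mean for 3 (Slco2b1, Abcc6 and Abcb1b; background 2.72%). Scaling by all reads also gave 5 genes, but with 1 higher and 4 lower. The count was unsteady: leaving out each liver in turn gave 1 to 6 genes, with 1 gene without ASK1f/f replicate 2, 2 without ASK1f/f replicate 4 or ASK1+hep replicate 2, 3 without ASK1f/f replicate 3 or 5 or ASK1+hep replicate 3 or 4, and 4 (3 higher and 1 lower) without both libraries that stood apart, of which Abcb4 and Slco2b1 are among the 5 and Abcg2 and Abcc5 are not. Shares of all genes were taken from the main comparison alone, so the changes of this count were not set against changes of the background. Exact permutation tests gave a p below 0.05 for 4 of the 44 (Abcb4, Slco2b1, Abcc6 and Abcb1b), beside 5.45% of all genes. In 0 of the 44 did the genotypes separate without overlap, beside 0.864% of all genes. Over the 44, 18 log2 differences were above 0 and 26 below, with a median of -0.033, and the median of all genes was -0.0065. Leaving out each liver in turn moved the median of the 44 between -0.076 and 0.0023, the latter without ASK1+hep replicate 3. It was -0.021 without both libraries that stood apart and -0.082 with scaling by all reads. Medians of all genes in these fits were not computed. The 95% confidence intervals of 42 of the 44 lay within a log2 difference of 1 in either direction. The exceptions were Abca6 (-1.08 to 0.32) and Abcd2 (0.0044 to 1.01). For the 11 genes with a mean below 1 FPKM the scale itself keeps the intervals narrow, so this count says little about them. Genes of the set are long, with a median of 6138 bases against 4107.5 bases for all genes compared.

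**Figure D2:**
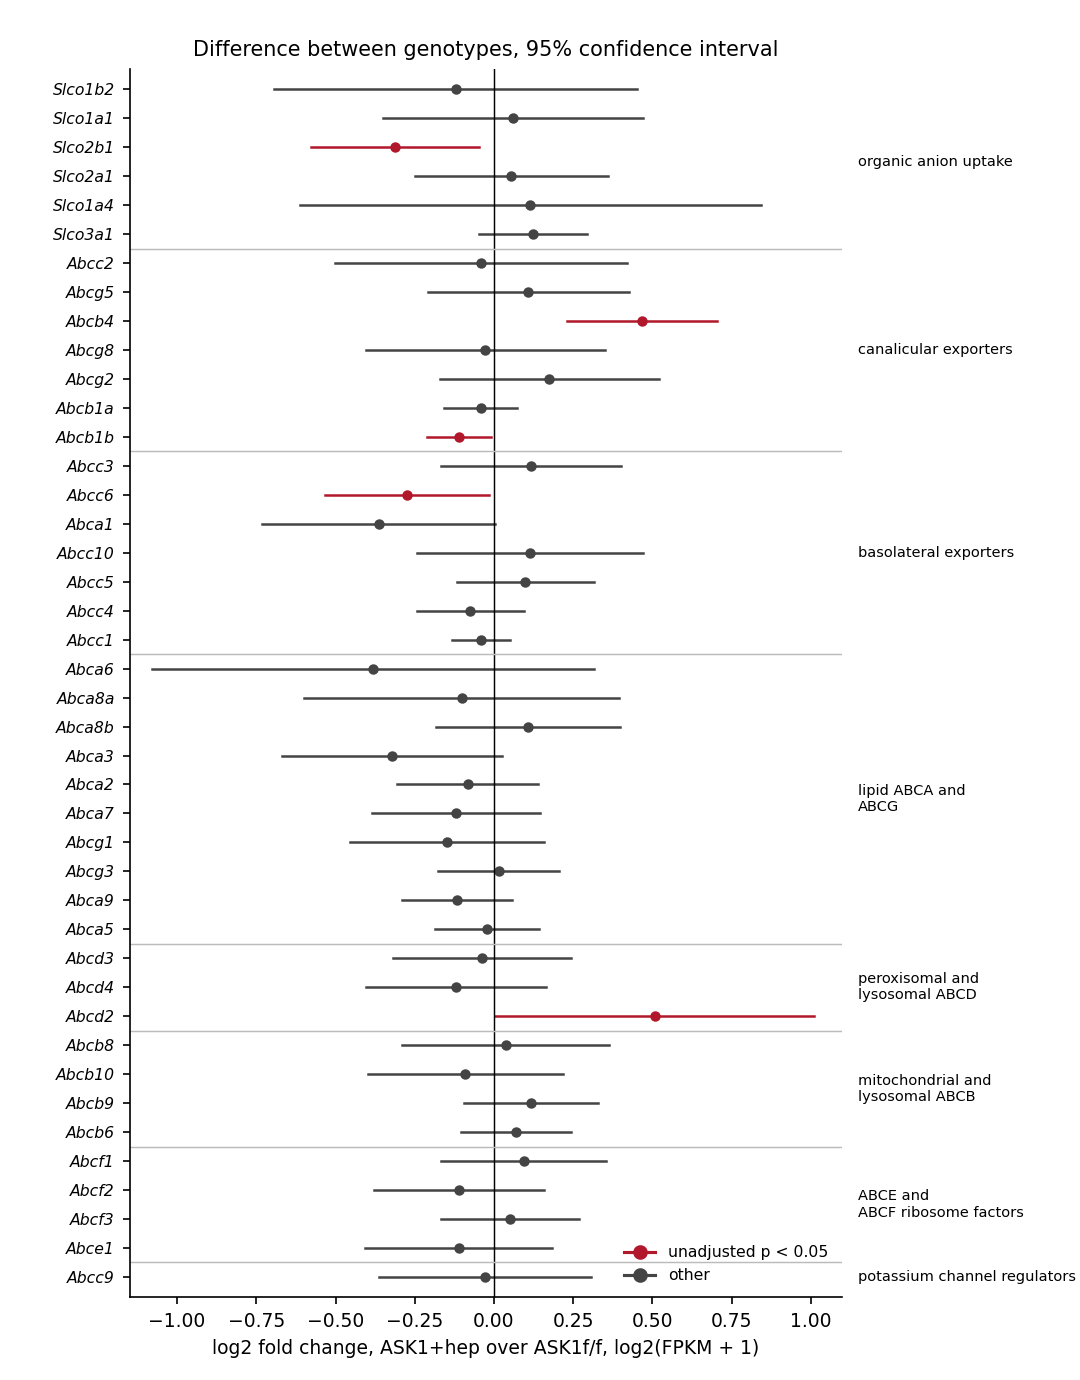
Log2 difference between genotypes on the log2(FPKM + 1) scale for 42 of the 44 transporters that passed the filter, grouped by role, with dots for the limma estimate and lines for the 95% confidence interval. Red marks the 5 genes with an unadjusted p below 0.05, of which Abcb4 (0.47) has its interval farthest from 0.

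Among the canalicular exporters, Abcb4, which moves phosphatidylcholine into bile, had the lowest p-value between genotypes. Abcb4 (ENSMUSG00000042476) lies on chromosome 5 (plus strand, 8893717 to 8959231, GRCm38), and its longest coding transcript in GENCODE M21 has 3828 coding bases. It was at 25.4, 25.7, 28.6, 26.6 and 31.4 FPKM in ASK1f/f livers 1 to 5 and at 39.3, 41.1, 40.6, 31.2 and 40.4 FPKM in ASK1+hep livers 1 to 5. All ASK1+hep livers but replicate 4 were above every ASK1f/f liver, and replicate 4 was just under ASK1f/f replicate 5. The means were 27.5 ± 2.52 and 38.5 ± 4.11 FPKM (SD, n = 5 each), a ratio of 1.40. The log2 difference was 0.47 (standard error 0.11, 95% interval 0.23 to 0.70), with an unadjusted p of 0.00105 in limma that ranked 13 among all genes and an adjusted p = 0.712. An exact two-sided permutation test over all splits into 5 and 5 gave p = 0.0159, where the smallest value possible is 0.00794. Abcb4 kept an unadjusted p below 0.05 in the main comparison and in each of its 19 alternatives, over which the log2 difference was 0.39 to 0.54 and the adjusted p 0.283 to 0.917. Without both libraries that stood apart the difference was 0.50 (adjusted p = 0.291, limma). Its promoter, shown because Abcb4 had the lowest p of the set, is taken from RefSeq on GRCm38.p6 as 250 bases before to 50 after the start site, with CCAAT and TATAAA on either strand in capitals. The window is chr5:8893471-8893770 on the plus strand.
Abcb4: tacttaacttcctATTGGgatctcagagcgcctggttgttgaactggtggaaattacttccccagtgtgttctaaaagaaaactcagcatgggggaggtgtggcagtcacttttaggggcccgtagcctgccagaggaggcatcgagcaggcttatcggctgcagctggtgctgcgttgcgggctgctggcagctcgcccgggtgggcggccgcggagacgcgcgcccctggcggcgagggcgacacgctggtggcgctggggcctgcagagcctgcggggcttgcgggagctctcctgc

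The window held a CCAAT box at position -237 from the start site, read on the minus strand, and no TATAAA. Abcb4 shares its stretch of chromosome 5 with Abcb1a and Abcb1b, which encode the drug efflux pump P-glycoprotein in mice, and the gap between Abcb1b and Abcb4 is 27401 bases. The neighbours differed widely in level, with means of 0.271 FPKM for Abcb1a and 0.162 FPKM for Abcb1b. Abcb1b (ENSMUSG00000028970) was at 0.180, 0.238, 0.126, 0.197 and 0.293 FPKM in ASK1f/f and at 0.125, 0.0774, 0.164, 0.0848 and 0.136 FPKM in ASK1+hep livers. These values rest on 8 to 36 reads per liver. The 3 lowest ASK1+hep livers were below every ASK1f/f liver and the groups overlapped. The log2 difference of -0.11 (standard error 0.046) had an unadjusted p of 0.0349 in limma (adjusted p = 0.812) and an exact two-sided permutation p = 0.0238. It depended on the pseudocount, being -0.49 at 0.1 and -0.79 in limma-voom, and its unadjusted p was below 0.05 in 10 of 19 settings. With same-numbered livers as a block it was 0.0641. Without ASK1f/f replicate 5, the liver with the highest value, the difference was -0.085 (unadjusted p of 0.0861). The coding sequences of Abcb1a and Abcb1b are 88.2% identical, with a longest identical run of 338 bases, so reads may have been split between these genes. Abcb4 was 76.3% identical to Abcb1a and 74.7% identical to Abcb1b. Abcb1a, of whose exon bases 10.1% are covered by a gene on the other strand, had a log2 difference of -0.042 (95% interval -0.16 to 0.073).

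The other canalicular pumps had unadjusted p-values above 0.05 in the comparison of all 10 livers. Abcc2, which exports bilirubin glucuronides, was at 55.4, 42.0, 54.4, 52.2 and 55.2 FPKM in ASK1f/f and at 65.3, 46.8, 29.2, 48.6 and 72.4 FPKM in ASK1+hep livers. The group means were alike at 51.8 ± 5.63 and 52.5 ± 17.0 FPKM (SD, n = 5 each), but the ASK1+hep livers held both the lowest and the highest value of the 10. Its log2 difference was -0.041 (95% interval -0.50 to 0.42), and it turned to 0.15 without ASK1+hep replicate 3. Abcg2, an exporter of sulphated steroids, urate and drugs, averaged 12.7 ± 1.85 FPKM in control and 14.7 ± 3.60 FPKM in ASK1+hep livers (SD, n = 5 each), with a log2 difference of 0.18 (95% interval -0.17 to 0.52). This difference depended on single libraries, at 0.060 without ASK1+hep replicate 5 and 0.11 when the control liver with replicate number 2 was left out. Leaving out ASK1+hep replicate 3 gave 0.27. Without both libraries that stood apart it was 0.335 (unadjusted p of 0.0464, adjusted p = 0.8798, limma). Over the 7 genes of the canalicular list, all of which passed the filter, 3 differences were above 0 and 4 below, with a median of -0.027.

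Abcg5 and Abcg8 encode partners of a single pump that secretes cholesterol and plant sterols into bile, and they lie head to head on chromosome 17. Abcg5 (ENSMUSG00000040505) runs on the minus strand from 84658234 to 84683011 and Abcg8 (ENSMUSG00000024254) on the plus strand from 84676302 to 84700333. Abcg5 was at 41.3, 26.8, 34.5, 32.9 and 28.9 FPKM in ASK1f/f and at 42.3, 36.5, 29.5, 29.6 and 39.7 FPKM in ASK1+hep livers. Abcg8 was at 39.5, 23.6, 28.3, 30.6 and 27.7 FPKM in ASK1f/f and at 38.1, 26.9, 21.0, 27.6 and 34.4 FPKM in ASK1+hep livers. Livers high in one transcript were high in the other, replicate 1 of each genotype most of all, and the genotypes overlapped in both. Both transcripts of a liver share its library and scaling. Across the 10 livers Pearson's r of log2(FPKM + 1) was 0.848 (permutation p = 0.00205, adjusted over 3 pairs p = 0.00615) and Spearman's rho 0.782 (permutation p = 0.0106, adjusted p = 0.0318). With group means removed r was 0.891 (permutation p = 0.00072, adjusted p = 0.00216). Without ASK1+hep replicate 1 and ASK1f/f replicate 2, the livers farthest from the median of Abcg5, r was 0.771 (permutation p = 0.0196, n = 8). The ratio of Abcg5 to Abcg8 in FPKM was 1.04 to 1.41 with a median of 1.12, highest in ASK1+hep replicate 3. Log2 differences between genotypes were 0.11 (95% interval -0.21 to 0.43) for Abcg5 and -0.027 (95% interval -0.40 to 0.35) for Abcg8. The gene models overlap by 6710 bases, but 3.02% of the exon bases of Abcg5 and 2.19% of those of Abcg8 are shared, and whether counting used the strand is not given in the sources used here. Reads in these shared bases could not be assigned to either gene without strand.

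**Figure D3:**
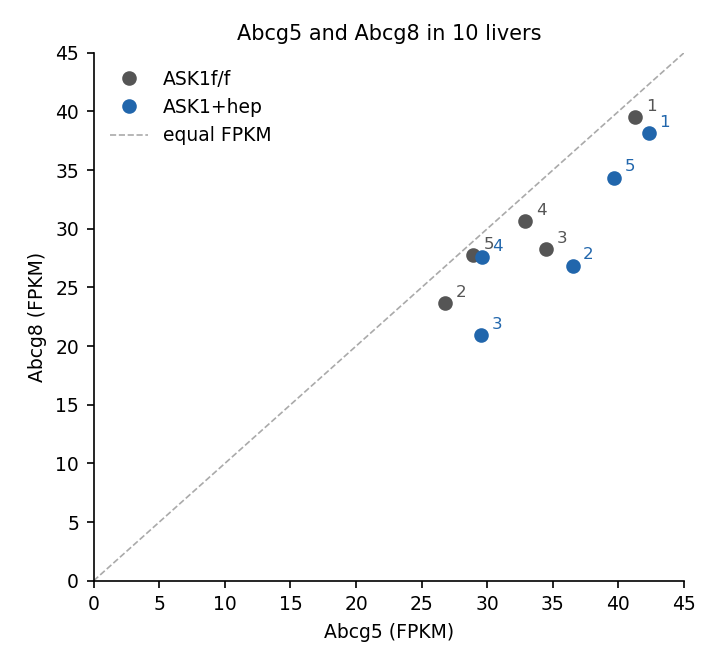
Abcg8 against Abcg5 in FPKM, each dot a liver with its replicate number, grey for ASK1f/f and blue for ASK1+hep (n = 5 each), with a dashed line at equal FPKM. All 10 livers lie below the line, with Abcg5 to Abcg8 ratios of 1.04 to 1.41, and the dots rise together (Pearson's r of 0.848 on the log2(FPKM + 1) scale).

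The windows around their start sites are shown because the transcripts varied together across livers and have start sites 110 bases apart, on opposite strands. For Abcg8 the window in the interval shared with Abcg5 was taken, so this distance rests on that choice. Its start site is at 84683121, while the Abcg8 gene model begins at 84676302. The windows, chr17:84682962-84683261 on the minus strand for Abcg5 and chr17:84682871-84683170 on the plus strand for Abcg8, share 209 bases, again with CCAAT and TATAAA on either strand in capitals.
Abcg5: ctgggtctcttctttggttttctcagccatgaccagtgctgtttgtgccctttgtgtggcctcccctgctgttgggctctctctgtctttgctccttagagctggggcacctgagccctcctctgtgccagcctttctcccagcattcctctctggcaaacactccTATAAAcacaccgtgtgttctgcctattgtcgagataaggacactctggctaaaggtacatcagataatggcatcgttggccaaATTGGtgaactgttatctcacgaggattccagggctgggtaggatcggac
Abcg8: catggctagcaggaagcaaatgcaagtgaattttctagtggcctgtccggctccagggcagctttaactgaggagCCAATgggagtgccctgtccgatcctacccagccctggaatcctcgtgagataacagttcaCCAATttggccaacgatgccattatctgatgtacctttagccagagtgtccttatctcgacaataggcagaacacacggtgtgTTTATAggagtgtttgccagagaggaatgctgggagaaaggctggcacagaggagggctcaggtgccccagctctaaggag

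The TATAAA in the Abcg5 window, at position -84, and the TTTATA in the Abcg8 window, at position -31, are the same bases, 84683090 to 84683095, read from opposite strands. Likewise the ATTGG at position 1 of Abcg5 and the CCAAT at position -114 of Abcg8 are the same bases, 84683007 to 84683011. Windows were found for 49 of the 63 transporters (60 windows of 300 bases, since a gene can have several starts). TATAAA on either strand was in 21.7% of them and in 13.6% of all 32851 windows of that length, and CCAAT in 36.7% and 37.4%. Motifs of AP-1, CREB and ATF4 were in few windows. The AP-1 site TGACTCA, searched on both strands, was in the window of Slco2b1 alone among the transporters (1.67% of windows against 5.20% of all). The CRE site TGACGTCA was in windows of Abce1 and Abcg2 (3.33% against 1.79%), and the ATF4 composite element TGATGNAA in those of Abca13 and Slco2a1 (3.33% against 3.97%). These are matches of letters and not shown binding sites.

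Among the organic anion carriers, Slco2b1 had an unadjusted p below 0.05, and the more abundant Slco1b2 and Slco1a1 did not. Slco2b1 (ENSMUSG00000030737), a carrier of sulphated steroids and drugs on chromosome 7 (minus strand, 99657804 to 99711340), was at 27.2, 28.4, 25.9, 24.8 and 22.8 FPKM in ASK1f/f livers 1 to 5. In ASK1+hep livers 1 to 5 it was at 25.8, 18.0, 23.1, 18.6 and 18.3 FPKM. ASK1+hep replicates 2, 4 and 5 were below every ASK1f/f liver, and the other two lay among them. The means were 25.8 ± 2.15 and 20.8 ± 3.52 FPKM (SD, n = 5 each), a ratio of 0.804. The log2 difference was -0.31 (standard error 0.12, 95% interval -0.58 to -0.047), with an unadjusted p of 0.0248 in limma and an adjusted p = 0.812 (0.387 to 0.960 over its alternatives). The exact two-sided permutation test gave p = 0.0476. The unadjusted p was below 0.05 in 15 of 20 settings, and it was 0.0547 without ASK1f/f replicate 1, 0.0607 without ASK1f/f replicate 2, and 0.0619, 0.0594 and 0.0534 without ASK1+hep replicates 2, 4 and 5. Genes on the opposite strand cover 9.21% of its exon bases.

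Slco1b2 (ENSMUSG00000030236), which takes up bilirubin conjugates, bile acids and statins, was at 166, 147, 244, 214 and 183 FPKM in ASK1f/f and at 228, 153, 95.4, 163 and 284 FPKM in ASK1+hep livers. The lowest and the highest value of all 10 livers were thus in ASK1+hep replicates 3 and 5, and the genotypes overlapped. The log2 difference was -0.12 (95% interval -0.69 to 0.45), which became 0.093 without ASK1+hep replicate 3 and -0.30 without ASK1+hep replicate 5. Slco1a1 (ENSMUSG00000041698), which carries sulphated hormones and bile acids, was at 85.8, 72.1, 101, 96.3 and 72.6 FPKM in ASK1f/f and at 103, 72.7, 64.2, 87.1 and 129 FPKM in ASK1+hep livers, with the same livers at the extremes. Its log2 difference was 0.060 (95% interval -0.35 to 0.47), and its sign depended on the scaling, at -0.018 with all reads. These carriers belong to a run of 7 members on chromosome 6, from Slco1c1 to Abcc9, in which Slco1a5 and Slco1a6 had 0 reads and Slco1a4 was at 2.95 ± 1.74 FPKM (SD, n = 10 livers). Slco1a4, a close relative of Slco1a1 with 86.7% identical coding bases, was the most uneven of the 6 carriers that passed the filter, with 1.18 FPKM in ASK1f/f replicate 5 and 6.77 FPKM in ASK1f/f replicate 3. Across the 10 livers the correlation of Slco1a1 and Slco1a4 did not pass the test (Pearson's r of 0.329, permutation p = 0.355, adjusted p = 0.532, Spearman's rho of 0.224, permutation p = 0.536). Slco2a1, a prostaglandin carrier, and Slco3a1 had means of 3.62 and 0.501 FPKM and log2 differences of 0.055 and 0.12. Of the 15 genes on the uptake list, which includes the non-coding Slco6b1, 6 passed the filter, with 4 differences above 0, 2 below and a median of 0.058.

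Basolateral exporters include Abcc6, which is needed for the release of ATP, a source of pyrophosphate, from hepatocytes and whose loss causes ectopic calcification. Abcc6 (ENSMUSG00000030834), on chromosome 7 (minus strand, 45967555 to 46030302), was at 48.2, 39.2, 40.5, 38.7 and 39.6 FPKM in ASK1f/f and at 42.4, 31.9, 28.9, 35.7 and 31.7 FPKM in ASK1+hep livers. All ASK1+hep livers but replicate 1 were below every ASK1f/f liver. The means were 41.2 ± 3.95 and 34.1 ± 5.21 FPKM (SD, n = 5 each), a ratio of 0.827. Its log2 difference of -0.27 (standard error 0.12, 95% interval -0.53 to -0.014) had an unadjusted p of 0.0405 in limma, an adjusted p = 0.812 (0.405 to 0.998 over its alternatives), and an exact two-sided permutation p = 0.0397. The unadjusted p was below 0.05 in 10 of 20 settings. It was 0.108 without ASK1f/f replicate 1, the highest liver, 0.0758 without ASK1+hep replicate 3, the lowest, and 0.0882 without both libraries that stood apart.

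Abca1 lay just outside that threshold. Abca1, which loads cholesterol onto apolipoprotein A-I, was at 13.1, 15.8, 15.7, 15.2 and 16.1 FPKM in ASK1f/f and at 15.8, 10.5, 7.70, 10.6 and 15.04 FPKM in ASK1+hep livers. ASK1+hep replicates 2, 3 and 4 were below all ASK1f/f livers, while replicates 1 and 5 lay within their range. The log2 difference was -0.36 (95% interval -0.73 to 0.0041, unadjusted p of 0.0522 in limma, exact two-sided permutation p = 0.0714). The unadjusted p was below 0.05 in 6 of 20 settings. The difference was -0.52 (unadjusted p of 0.0140) in CC-tagged animals alone, -0.47 (0.0145) without ASK1+hep replicate 1 and -0.45 (0.02003) without ASK1+hep replicate 5. It was -0.23 (0.112) without ASK1+hep replicate 3 and -0.21 (0.183) without both libraries that stood apart. Abcc3, which returns bile acid and bilirubin conjugates to the blood, averaged 36.7 ± 4.55 FPKM in control and 39.9 ± 5.77 FPKM in ASK1+hep livers (SD, n = 5 each), with a log2 difference of 0.12 (95% interval -0.17 to 0.40). Abcc4, its relative that exports cyclic nucleotides and bile acids, was scarce, with 5 to 38 reads per liver and a mean of 0.205 FPKM. The correlation of Abcc3 and Abcc4 did not pass the test either (Pearson's r of 0.152, permutation p = 0.676, adjusted p = 0.676, Spearman's rho of 0.0788, permutation p = 0.839). Abcc10, Abcc5 and Abcc1 passed the filter at means of 2.85, 0.488 and 0.0942 FPKM, with log2 differences of 0.11, 0.10 and -0.041, and Abcc12 did not pass. Of the 7 basolateral exporters compared, 3 differences were above 0 and 4 below, with a median of -0.041.

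**Figure D4:**
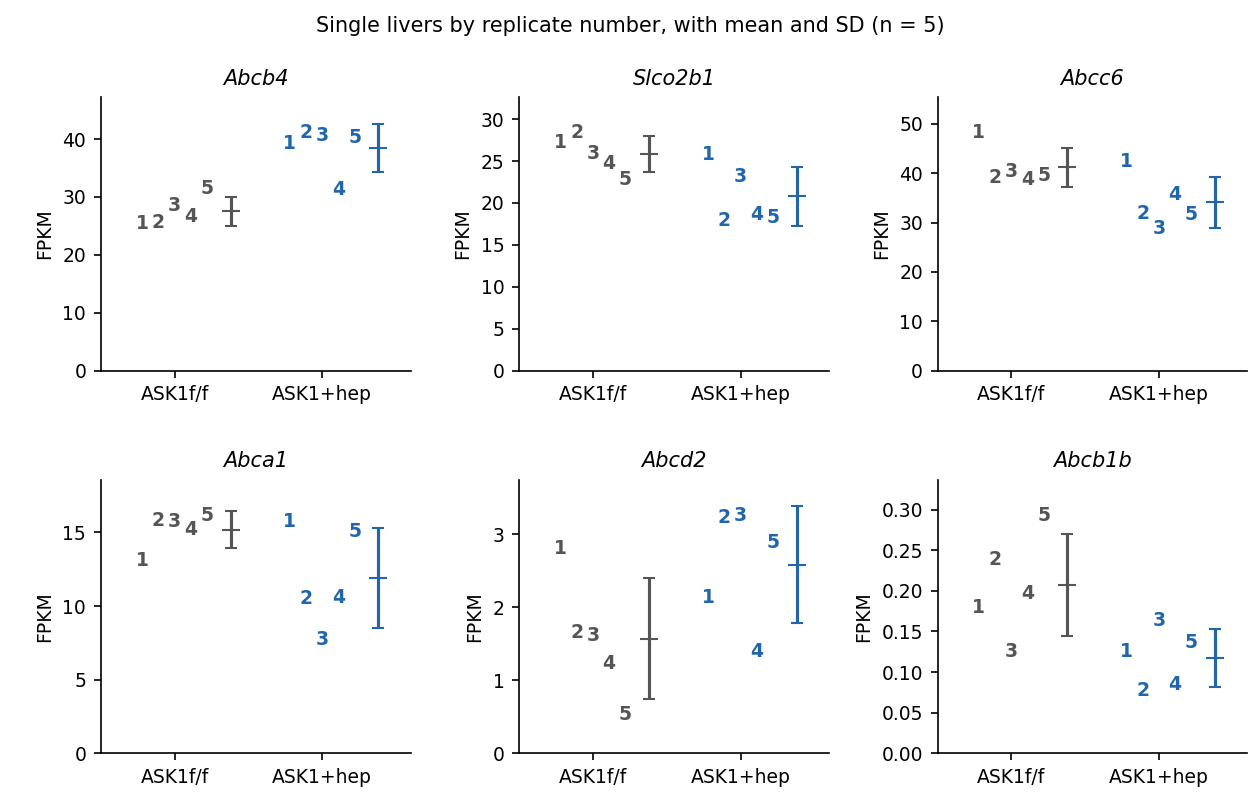
FPKM of 6 transporters in single livers, drawn as replicate numbers, grey for ASK1f/f and blue for ASK1+hep, with the mean and SD (n = 5) beside each group and every axis starting at 0. In Abcb4, ASK1+hep replicate 4 is the only liver of its group within the ASK1f/f range, and in Slco2b1, Abcc6, Abca1, Abcd2 and Abcb1b at least 1 ASK1+hep liver lies among the ASK1f/f values.

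Of 21 lipid transporters listed in families A and G, 13 passed the filter, and 0 of the 13 had an unadjusted p below 0.05, beside 5.77% of all genes. Their log2 differences were above 0 for 3 and below for 10, with a median of -0.10, where 48.0% of all genes were above 0 and the median was -0.0065. A cluster on chromosome 11, from Abca8b to Abca5, holds 5 members of which Abca6 was the most abundant. Abca6 was at 18.6, 17.8, 25.1, 23.6 and 26.4 FPKM in ASK1f/f and at 26.3, 13.8, 7.76, 13.1 and 33.9 FPKM in ASK1+hep livers. ASK1+hep livers thus spanned a range of 4.37 times, with 3 below and 1 above all ASK1f/f livers. The log2 difference of -0.38 (95% interval -1.08 to 0.32) was -0.065 without both libraries that stood apart. Abca8a, which has been tied to sterol efflux, was at 12.4 ± 3.66 FPKM and Abca8b at 5.65 ± 0.962 FPKM (SD, n = 10 livers), with log2 differences of -0.10 and 0.11. Abca8a and Abca8b have 74.8% identical coding bases, with a longest identical run of 97. Abca9 and Abca5 of the same cluster were near 0.4 FPKM. Elsewhere, Abca3, known for surfactant lipids in lung, had a mean of 4.90 FPKM and a log2 difference of -0.32 (95% interval -0.67 to 0.025), with a gene on the other strand over 9.75% of its exon bases. Its unadjusted p was 0.0292 with same-numbered livers as a block. It falls outside the naming rule and was picked after its value was seen. Abca2, Abca7 and Abcg1, the last a sterol exporter of macrophages and hepatocytes, had means of 4.88, 1.29 and 1.08 FPKM and log2 differences of -0.083, -0.12 and -0.15.

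Of the family D pumps, Abcd2 and Abcd3 bring activated fatty acids into peroxisomes and Abcd4 exports cobalamin from lysosomes. Abcd2, which handles very-long-chain and polyunsaturated acids, was at 2.81, 1.66, 1.62, 1.24 and 0.535 FPKM in ASK1f/f and at 2.13, 3.24, 3.26, 1.40 and 2.89 FPKM in ASK1+hep livers. ASK1+hep replicates 2, 3 and 5 were above every ASK1f/f liver, and ASK1f/f replicate 5 was the lowest of all. These values rest on 49 to 279 reads. The means were 1.57 ± 0.826 and 2.58 ± 0.804 FPKM (SD, n = 5 each), a ratio of 1.64. The log2 difference was 0.51 (standard error 0.23, 95% interval 0.0044 to 1.01, unadjusted p of 0.0483 in limma), with an adjusted p = 0.812 (0.419 to 0.9995 over its alternatives) and an exact two-sided permutation p = 0.0794. The unadjusted p was below 0.05 in 7 of 20 settings. The difference was 0.34 without ASK1f/f replicate 5, 0.27 without both libraries that stood apart (unadjusted p of 0.226), 0.78 at a pseudocount of 0.1 and 0.82 in limma-voom. Abcd3, which also takes bile acid intermediates into peroxisomes, was far more abundant and among the steadiest members, at 62.6 to 92.7 FPKM in control and 71.9 to 92.5 FPKM in ASK1+hep livers. Its log2 difference was -0.037 (95% interval -0.32 to 0.24).

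Transporters of mitochondria and the ribosome factors held no gene with an unadjusted p below 0.05, where 5.77% of all genes had one. Abcb8 and Abcb10, pumps of the inner mitochondrial membrane, had means of 10.1 and 7.19 FPKM and log2 differences of 0.037 and -0.090. Abcb8 was highest in ASK1+hep replicate 3, at 15.1 FPKM against 7.92 to 11.0 FPKM elsewhere, and its difference turned to -0.097 without that liver. Abcb9 and Abcb6 were at 0.803 and 0.626 FPKM. A gene on the same strand covers 55.2% of the exon bases of Abcb6, so reads there cannot be assigned by strand. Abce1, which splits ribosomes after termination, was at 9.68 ± 1.52 FPKM (SD, n = 10 livers). Abcf1, Abcf2 and Abcf3, which act in translation, were at 21.5 ± 2.84, 16.9 ± 2.16 and 14.9 ± 1.29 FPKM (SD, n = 10 livers). Abcf3 had a coefficient of variation of 8.70%, while the median over the 23 named genes was 19.6%. Log2 differences of these factors were between -0.11 (Abce1 and Abcf2) and 0.094 (Abcf1). Abcc9, a potassium channel subunit of muscle and vessel cells, was at 2.09 ± 0.495 FPKM (SD, n = 10 livers), with a log2 difference of -0.029.

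Extreme values gathered in a pair of ASK1+hep livers, over all genes as well as in the set. Among the 44 transporters compared, ASK1+hep replicate 3 had the lowest value for 15 (34.1%, against 26.1% of all genes) and ASK1+hep replicate 5 the highest for 14 (31.8%, against 17.2% of all genes). At the opposite ends, ASK1+hep replicate 3 had the highest value for 4 transporters (9.09%, against 26.35% of all genes). ASK1+hep replicate 5 had the lowest for 4 (9.09%, against 15.9% of all genes). Of the 23 with a mean of at least 5 FPKM, replicate 3 was lowest for 11 and replicate 5 highest for 9. The share of all genes at that level was not computed. Summed FPKM of the set was 609.9 in ASK1+hep replicate 3 and 999.5 in ASK1+hep replicate 5, and 708.7 to 887.1 in ASK1f/f livers. These livers were also at the ends of a shift with gene length over all genes. For this, each liver was set against the mean of the other livers of its genotype in log2(FPKM + 1). In ASK1+hep replicate 3 the genes with models of up to 2433 bases, the shortest 25% of all compared, lay at a median of 0.27 above that mean. Those of at least 6474 bases, the longest 25%, lay at -0.12. In ASK1+hep replicate 5 these medians were -0.23 and 0.12. Of the 44 transporters 19 fell in the longest 25%. The part of this shift in the transporter values was not tested.

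**Figure D5:**
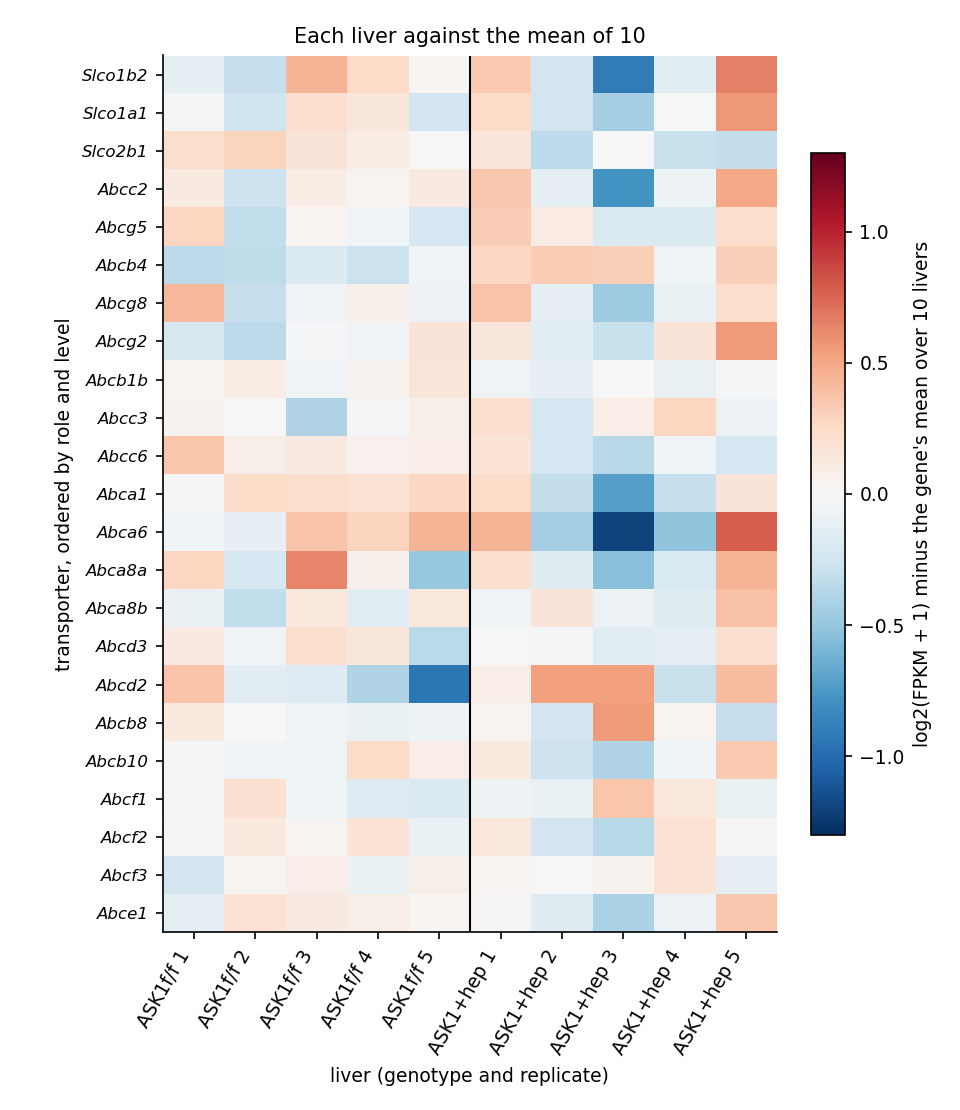
Deviation of each liver from the mean of the 10 livers in log2(FPKM + 1) for the 23 named transporters, red above and blue below, with ASK1f/f to the left and ASK1+hep to the right of the black line. ASK1+hep replicate 3 is the lowest liver for Slco1b2, Abcc2, Abca1 and Abca6, and ASK1+hep replicate 5 the highest for Slco1b2, Slco1a1 and Abca6, while Abcb4 is below its mean in all 5 ASK1f/f livers.

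Transport genes outside these families also had 0 adjusted calls. Of 28 other hepatocyte carriers and membrane partners, 23 passed the filter, and 0 were higher and 2 lower at an unadjusted p below 0.05, beside 3.05% and 2.72% of all genes. Their median log2 difference was -0.051, against -0.0065 for all genes. Ezr, which encodes the linker ezrin, was at 1.18, 1.58, 1.83, 2.30 and 1.46 FPKM in ASK1f/f and at 0.856, 1.13, 0.991, 1.07 and 1.08 FPKM in ASK1+hep livers. Every ASK1+hep liver was below every ASK1f/f liver (log2 difference -0.39, adjusted p = 0.764 in limma, exact two-sided permutation p = 0.00794, the smallest possible). Over all genes, 0.864% separated without overlap in either direction. The carriers and regulators named here were eligible as the 3 with the lowest p of their list. Their p-values are therefore not independent of that choice. Atp7b, a copper pump, and Slc22a3, a cation carrier, had log2 differences of -0.45 and 0.25. Of 28 regulators of transporter genes, 27 passed, with 1 higher and 3 lower at an unadjusted p below 0.05 (the same backgrounds of 3.05% and 2.72%) and a median of -0.075. The higher gene was Nr0b2, which encodes the bile acid-induced repressor SHP. Nr0b2 was at 14.4, 19.8, 11.5, 17.3 and 32.5 FPKM in ASK1f/f and at 27.3, 30.5, 56.6, 51.1 and 38.4 FPKM in ASK1+hep livers, so that the groups met at ASK1f/f replicate 5 (log2 difference 1.08, adjusted p = 0.712 in limma, exact two-sided permutation p = 0.0238). Onecut1 and Esr1, a hepatocyte factor and the estrogen receptor, had log2 differences of -0.68 and -0.31.

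Marker genes of other cells were read beside these values. The labelled tissue held its markers, with Alb at 14692 to 25083 FPKM, and the summed FPKM of 5 hepatocyte markers overlapped between genotypes. Beside 5.77% of all genes, 1 of these 5 had an unadjusted p below 0.05. This was Ttr, which encodes the thyroid hormone carrier transthyretin and was higher in ASK1+hep by a ratio of 1.48, with 4 of 5 livers above every ASK1f/f liver (adjusted p = 0.812 in limma, exact two-sided permutation p = 0.0317). Summed over 4 globin genes, red-cell markers ranged from 279 to 447 FPKM in ASK1f/f and from 279 to 988 FPKM in ASK1+hep livers. All 4 genes were higher in ASK1+hep on average, 2 of them at an unadjusted p below 0.05, beside 3.05% of all genes. Sums of 6 Kupffer cell markers ranged from 55.4 to 90.1 and from 41.6 to 85.2 FPKM, with all 6 differences below 0. Differences below 0 numbered 4 of 5 for sinusoidal endothelial, 4 of 5 for stellate and 3 of 5 for cholangiocyte markers. For lymphocytes they were 0 of the 2 markers that passed the filter, and 48.0% of all genes were above 0. Sums for sinusoidal endothelium (19.1 to 33.6 FPKM over the 10 livers), stellate cells (13.5 to 25.6 FPKM), cholangiocytes (15.6 to 28.2 FPKM in ASK1+hep, within the ASK1f/f range) and lymphocytes (1.07 to 2.97 FPKM) overlapped, and 0 of these markers had an unadjusted p below 0.05. Of the pancreatic markers, Cela2a was at 0.272 to 0.490 FPKM in control and 0.511 to 0.674 FPKM in ASK1+hep livers. Its groups did not overlap, beside 0.864% of all genes. Cpa1, Prss2 and Pnlip did not pass the filter. The part of these markers in the transporter values was not tested. All 10 mice had Y-linked transcripts and Xist at 0.0129 FPKM or less.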

How the data were processed

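Poly-A RNA of 10 mouse livers, 5 ASK1f/f and 5 ASK1+hep, was sequenced. The authors removed adapters and low-quality reads (fastp is named in the submitters' processing notes), mapped reads with Hisat2, counted them per gene with FeatureCounts, and deposited FPKM values. Versions, genome build, annotation release and strand setting are not given in the sources used here. All 63 transporters were found in GENCODE M21 (GRCm38), 61 of them at the same position.

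FPKM multiplied by gene length gave whole reads for 100% of values in every library (tolerance 0.01), which served for depth, the filter and limma-voom. The authors' count test was not repeated. Genotypes were compared with limma 3.58.1 (R 4.3.3, mean-variance trend, no covariates) on log2(FPKM + 1), with Benjamini-Hochberg adjustment over 13306 genes, and the script was tested on simulated data. Exact permutation tests covered all splits into 5 and 5, and correlations used 100000 permutations. Alternatives were dropping the filter, requiring 10 reads in each liver, a pseudocount of 0.1, limma-voom, quality weights, scaling by all reads, a replicate block, CC-tagged animals only, and leaving out each liver. Leaving out both libraries that stood apart was chosen after seeing the data. Median-ratio scaling equals the deposited one and gave no alternative.

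The transporters and gene lists were chosen with earlier results of these data known. Named transporters had a mean of at least 5 FPKM, an unadjusted p below 0.05 or groups without overlap. Of these, 2 are not reported here, though they count among the 63 and 44. Of other lists the 3 genes with the lowest p were eligible. Libraries within a group differed by at least 19.4 in chi-square per degree of freedom, so no pair was near sampling noise. Each liver is 1 animal. Sequences come from RefSeq on GRCm38.p6, and identities are of aligned coding sequences of the longest coding transcript in GENCODE M21 (Biopython 1.88).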

Additional observations from a re-analysis of the deposited data

Results flagged for a closer look

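In groups of 5 livers, a value was taken up here when its gap to the nearest liver exceeded 0.71 of the group's range (Dixon's limit). Of 48 groups examined 5 exceeded it, where chance gives about 1 in 20. Abcb4 was at 31.2 FPKM in ASK1+hep replicate 4, below 39.3 to 41.1 FPKM in the others of its group. Abcc6 was at 48.2 FPKM in ASK1f/f replicate 1, above 38.7 to 40.5 FPKM in the other controls, and without this liver its log2 difference was -0.22 (unadjusted p of 0.108 in limma). Abcc2 was at 42.0 FPKM in ASK1f/f replicate 2, below 52.2 to 55.4 FPKM. Abcc3 was at 28.8 FPKM in ASK1f/f replicate 3, below 37.3 to 40.1 FPKM, and without this liver its log2 difference was 0.034 in place of 0.12. Map3k5 was at 19.8 FPKM in ASK1f/f replicate 5, above 4.71 to 6.88 FPKM in the other controls.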

How the results depend on the processing

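The count of transporters past an adjusted p of 0.05 was 0 in every alternative run, and likewise 0 over all transport and regulator lists. The count at an unadjusted p below 0.05, 5 as reported, was 3 with sample quality weights, 1 to 6 when each liver was left out, and 4 to 6 in the other alternatives. Exact permutation tests gave 4 of the 23 named genes at p below 0.05, beside 5.45% of all genes, and 1 to 5 when each liver was left out. For these alternatives the share of all genes was not computed. Abcd2 and Abcb1b had been named for their unadjusted p, so the count of permutation tests is not independent of that choice. Same-numbered livers deviated together with correlations of 0.0212 to 0.174, not all over 0.1, and 2 of 5 matched their own number best, so the numbers were not taken as pairs. Each correlation was above that pair's mean with other numbers (means of 0.107 and -0.0275). The mice of 4 of the 5 same-numbered pairs carry consecutive animal tags, but no label says what a number marks. With the replicate block limma gave 5 genes, 4 of them among the 5 as reported, with Abca3 in place of Abcb1b. Within same-numbered pairs Abcb4 was higher in ASK1+hep in 5 of 5, and Abcc6 and Slco2b1 in 0 of 5. The sign-flip test within these pairs gave 0 genes, since 5 pairs cannot go below 0.0625. The correlations of the 3 pairs kept their side of the threshold in their alternatives.

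Of the 23 named transporters 13 kept the sign of their difference in every alternative and 10 did not, and those 10 had differences of -0.12 to 0.094 as reported. With quality weights the log2 difference turned to 0.049 for Abcc2, 0.015 for Abcg8 and -0.012 for Abcb8. Scaling by all reads gave -0.018 for Slco1a1, -0.022 for Abcf3 and -0.036 for Abcb8, and CC-tagged animals alone gave -0.0014 for Abcf3. Without both libraries that stood apart it was 0.084 for Slco1b2, 0.17 for Abcc2, 0.064 for Abcg8, -0.018 for Abcf1, -0.11 for Abcb8 and 0.0075 for Abcb10. Leaving out each liver gave ranges that crossed 0: -0.30 to 0.093 for Slco1b2, -0.074 to 0.18 for Slco1a1, -0.13 to 0.012 for Abcd3, -0.17 to 0.15 for Abcc2, -0.12 to 0.086 for Abcg8, -0.0021 to 0.087 for Abcf3, -0.24 to 0.044 for Abca8a and -0.097 to 0.12 for Abcb8. The cause was not tested. Depth limits the genes below 1 FPKM, of which Abcb1b rests on 8 to 36 reads and Abcc4 on 5 to 38.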
